A study of Mus musculus with 16 samples.

Results

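Mature myeloid cells of the LARRY experiments were set against the bone marrow of the same kind of experiment to ask at which CpGs the mature cells carried another methylation level. The members were the 2 libraries labelled as LARRY mature myeloid cells, 1 from lung with 5855 cells and 1 from bone marrow and peripheral blood (BM+PB) with 5239 cells. They made up 2 of the 16 libraries and 11094 of the 95930 cells of the series. They were compared with the 6 LARRY bone marrow libraries, mice 1 to 4 of the main experiment and mice 1 and 2 of the replicate experiment, with 26090 cells. LARRY is a lentiviral barcoding system in which a stem cell and its offspring carry the same integrated DNA barcode. All 8 libraries carry the LARRY label, and the labels give the cell type of each as immune cells. No source used here gives the strain, sex or age, how the cells were sorted, or whether the lung and BM+PB libraries share an animal. The 2 myeloid libraries are named as 1 experiment, apart from the main and replicate bone marrow experiments, so experiment and cell kind cannot be told apart within these 8 libraries.

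The assay was scTAM-seq, in which DNA of single cells is cut with a restriction enzyme that spares methylated sites before a fixed panel of 663 targets is amplified in droplets. A read from an amplicon therefore marks a methylated CpG in that cell, and the share of cells with at least 1 read is the methylation level of a library. As background, methylation at regulatory CpGs is copied at cell division and is rewritten as blood stem and progenitor cells mature. Granulocytes and monocytes lose methylation at enhancers and promoters of myeloid genes on this path, and lymphoid cells change at other sites. The amplicons are known here by panel identifier only, so no gene, position or sequence is attached to any of them.

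Myeloid cells were read less deeply than bone marrow cells. The median was 14693 reads per cell in the lung library and 24569 in the BM+PB library, against 45003.5 to 89971 in the bone marrow libraries. All cells were therefore thinned to 11093 reads, which kept 4391 of the 5855 lung cells and left out 1.32% of BM+PB cells and at most 2.13% of the cells of any bone marrow library. At this depth a cell had reads at a mean of 395 amplicons in lung and 367 in BM+PB, against 351 to 389 in bone marrow. The 77 amplicons with a read in nearly every cell were read in a mean of 98.2% of lung cells and 97.4% of BM+PB cells, against 94.4% to 97.3% of bone marrow cells. A level near 50% in a myeloid library has a 95% exact binomial interval of at most 1.49 points to either side, which covers counting error only. Any 2 of the 8 libraries shared 5 to 21 cell barcodes.

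The labelled cell type could be checked with antibody tags in a limited way. The protein table given for the lung myeloid library is the same as that of the lung endothelial library, and its barcodes hold 99.6% of endothelial cells but 23.9% of lung myeloid cells, close to the 22.2% to 24.6% found for unrelated libraries. No protein was therefore read for lung myeloid cells. The BM+PB table has no tag for CD11b, Ly-6C, Ly-6G or F4/80, the defining surface proteins of granulocytes and macrophages. Its 2 remaining myeloid tags were low. The receptor CD115 of monocytes had a median of 4 UMI per cell and the Fc receptors CD16/32 a median of 0, where 6 isotype control tags had medians of 1 to 3.

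Tags of stem and progenitor cells went both ways in the BM+PB library. Over the 13 tags it shares with 3 bone marrow libraries, c-Kit, the stem cell factor receptor of progenitors and mast cells, took 25.5% of UMI in BM+PB, against 9.45% to 10.7% in bone marrow. The interleukin 7 receptor CD127 took 18.3%, against 2.34% to 2.98%, and CD150 took 8.20%, against 2.12% to 3.00%. The tyrosine kinase receptor CD135 took 0.304%, against 2.25% to 2.64%, the endothelial protein C receptor CD201 0.134%, against 0.797% to 1.09%, and CD27 1.81%, against 6.36% to 7.20%. Sca-1 lay within the marrow range. CD48, found on most blood cells beyond the stem cell stage, took 4.74%, against 22.3% to 26.3%. In all, 5 tags lay above the bone marrow range, 7 below it and 1 within it, and with 1 myeloid library there is no test. On the centred log ratio per cell, CD115 moved to the other side of the range. The isotype tags held 12363 to 25706 UMI each, against 31035 for CD115. Whether the tags of the BM+PB library reflect surface protein, and whether each name in that table belongs to its column, was not tested, so the labelled cell type could not be checked by protein in either library.

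Of 608 amplicons with a mean level of 2% to 98%, 64 were higher in myeloid cells than in LARRY bone marrow and 15 were lower (edgeR quasi-likelihood test, Benjamini-Hochberg adjusted p under 0.05). These are 10.5% and 2.47% of the amplicons tested. At all 79 amplicons both myeloid libraries lay outside the range of the 6 bone marrow libraries on the side of the call. Over all 663 amplicons, tested or not, 167 (25.2%) lay above that range in both and 43 (6.49%) below. Range and call use the same values, so the range is no separate support for the call. The median difference in level was 15.2 percentage points at the higher amplicons and -20.7 at the lower ones, against a median size of 4.62 points over all amplicons tested. The higher amplicons had a median level of 87.7% in lung and 89.9% in BM+PB, against 64.5% to 73.1% in the 6 bone marrow libraries. The lower ones had a median of 26.8% in lung and 20.7% in BM+PB, against 43.1% to 52.5%. Lung and BM+PB differed by a median of 2.21 points over the 64 higher amplicons and 2.89 points over the 15 lower ones. This closeness is a description, since the amplicons were called on these same 2 libraries. Over all 608 amplicons lung was above BM+PB at 510. Without the lung library 28 amplicons were higher and 5 lower, and without the BM+PB library 12 were higher and 0 lower (edgeR, with 124 at an unadjusted p under 0.05).

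**Figure D1:**
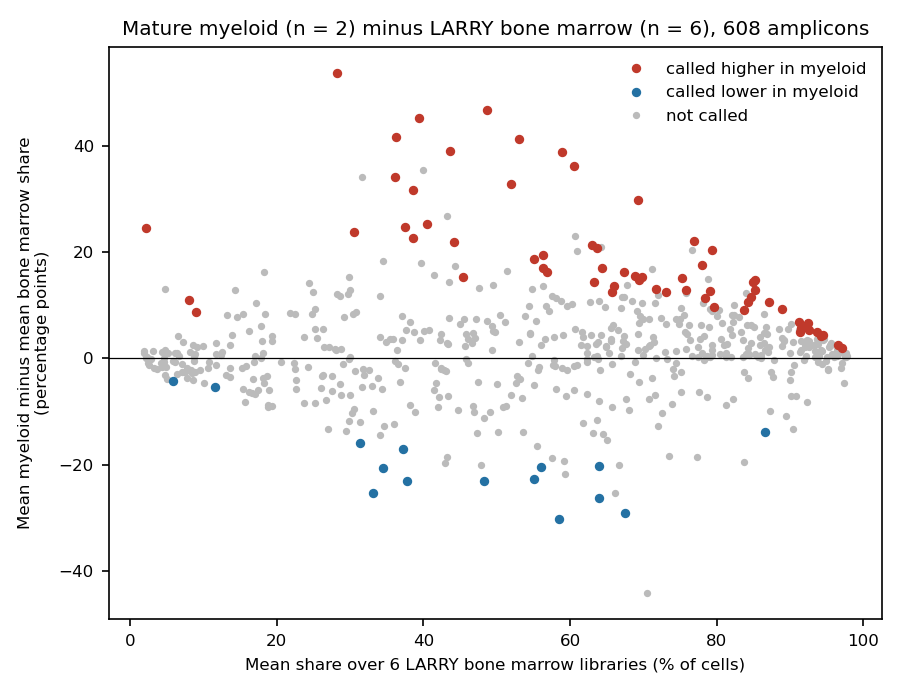
Mean share of cells with a read over the 2 myeloid libraries minus the mean over the 6 LARRY bone marrow libraries (percentage points, y axis) against the bone marrow mean (% of cells, x axis), each point 1 of 608 amplicons. Red points are the 64 called higher and blue points the 15 called lower in myeloid cells, with medians of 15.2 and -20.7 points.

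Counted by range alone, with no test, 167 of 663 amplicons (25.2%) were above every LARRY bone marrow library in both myeloid libraries and 43 (6.49%) were below. By a margin of more than 10 points 23 were above and 10 below (3.47% and 1.51%), and by more than 20 points 9 were above and 0 below (1.36% and 0.00%). The balance held at a lower common depth. Cells thinned to 5546 reads gave 7 amplicons more than 20 points above and 0 below. There edgeR called 68 higher and 18 lower. The balance turned where the depth of the libraries was left unequal. With all reads, without thinning, 1 amplicon was more than 20 points above and 13 below, and edgeR called 23 higher and 62 lower.

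The widest separation was at AMPL365802, read in 87.3% of lung and 76.3% of BM+PB myeloid cells. The bone marrow libraries were at 16.3%, 16.2%, 39.4% and 38.9% in main mice 1 to 4 and at 27.99% and 30.4% in replicate mice 1 and 2. The nearest LARRY bone marrow library was thus 37.0 points away, although the LARRY marrow libraries themselves spread over more than 20 points. Marrow outside LARRY had 11.5% in the native library and 75.1% to 91.7% in the young, old and transplant libraries. Old 2, at 87.6%, and transplant, at 91.7%, were above both myeloid libraries. AMPL355676 came next, with 95.8% in lung and 94.9% in BM+PB. Bone marrow had 51.4%, 46.9%, 52.6% and 62.1% in the main mice and 25.4% and 53.9% in the replicate mice. Nearly every myeloid cell was thus methylated at a site where LARRY marrow cells were mixed. Marrow outside LARRY ran from 36.6% in the native library to 97.0% in transplant, above both myeloid libraries. Lung endothelial cells had 95.9%. The remaining 7 amplicons of this set were AMPL365953, AMPL355534, AMPL371584, AMPL388761, AMPL371452, AMPL365943 and AMPL366831, whose distance to the bone marrow range ran from 24.0 to 20.5 points. AMPL366831 was the last inside the margin and AMPL388656, at 19.3 points, the first outside it.

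Most myeloid cells had reads at most of these 9 amplicons. The lowest level was at AMPL365943, read in 53.1% of lung and 55.5% of BM+PB cells. A lung cell had reads at a mean of 7.96 of the 9 and a BM+PB cell at 7.67, against 3.54 to 4.95 in the LARRY marrow libraries. At least 7 of the 9 were read in 91.5% of lung and 85.8% of BM+PB cells, against 4.61% to 22.1% of LARRY marrow cells. In marrow outside LARRY the share was 8.34% in the native library and 62.3% to 86.2% in the young, old and transplant libraries, so that transplant marrow reached the level of BM+PB. As these amplicons were chosen for their levels in the same libraries, the counts follow in part from those levels. They describe how the reads are spread over cells and are no test of a gain.

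**Figure D2:**
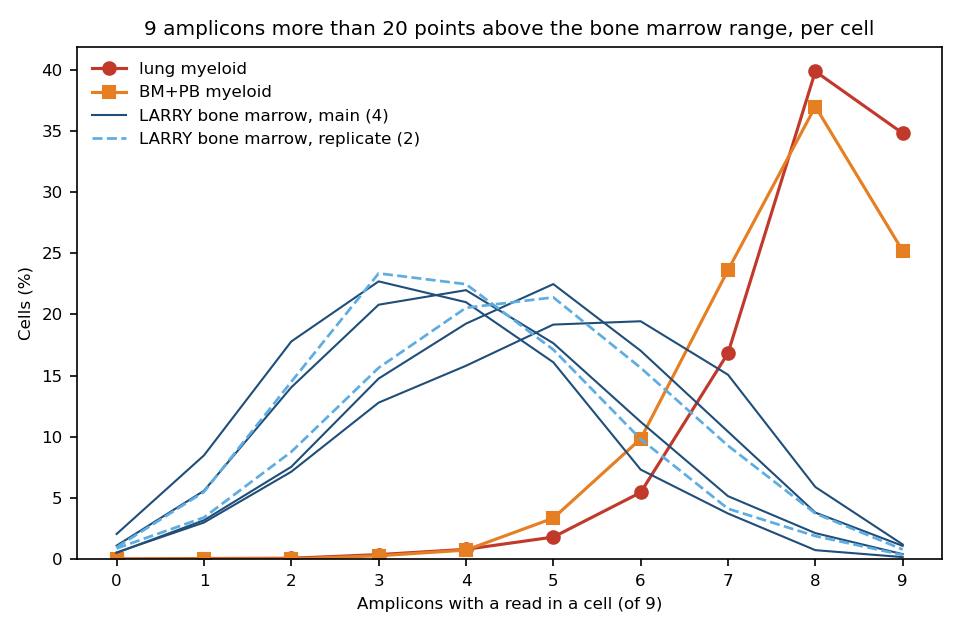
Number of the 9 amplicons with a read in a cell (x axis, 0 to 9) and share of cells (% of a library, y axis). The 2 myeloid libraries (red circles, orange squares) peak at 8, and the 4 main (dark solid lines) and 2 replicate (light dashed lines) LARRY bone marrow libraries peak between 3 and 6.

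Ranked by the difference in log odds, the 10 leading higher amplicons fell into 3 shapes. At AMPL371570, AMPL355545, AMPL388369 and AMPL388535 myeloid cells were near full methylation, with levels of 98.5% to 99.98%, and most LARRY marrow libraries were high as well. Marrow outside LARRY had 97.9% to 99.97% at these sites in the young, old and transplant libraries and 88.5% to 95.4% in the native library. AMPL371570 was read in 99.8% of lung and 99.98% of BM+PB cells. The main mice had 92.9%, 90.4%, 91.1% and 94.5%, and the replicate mice had 95.1% and 47.2%. The difference in log odds was 4.74 ± 0.918 (SE; edgeR adjusted p = 0.0107). Replicate mouse 2 stood apart from the other 5 marrow libraries here, and also at AMPL355545 (42.7%, next lowest 80.5%) and at AMPL388535 (58.1%, next lowest 83.8%).

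The second shape joined near-full methylation in myeloid cells to intermediate levels in LARRY marrow. AMPL371452 was read in 99.0% of lung and 99.1% of BM+PB cells. The main mice had 78.1%, 69.8%, 61.5% and 63.6%, and the replicate mice had 75.6% and 67.3%. Its difference of 3.82 ± 0.273 in log odds (SE) had an edgeR adjusted p of 6.86e-05. AMPL355534 had 98.3% in lung and 97.2% in BM+PB, against 38.4% to 73.5% in marrow (log odds 3.40 ± 0.397). AMPL388761 had 97.4% and 96.0%, against 48.7% to 73.9% (2.95 ± 0.344). AMPL366831 had 93.1% and 95.2%, against a wide 27.3% to 72.6% (2.66 ± 0.534, edgeR adjusted p = 0.0119).

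AMPL388656 was the third shape, a site that was nearly unmethylated in LARRY marrow. It was read in 23.3% of lung and 29.9% of BM+PB cells. The main mice had 3.26%, 0.809%, 1.13% and 4.07%, and the replicate mice had 2.03% and 1.98%. The groups differed by 2.89 ± 0.417 in log odds (SE; edgeR adjusted p = 0.00341). Marrow outside LARRY ran from 1.91% in the native library over 7.64% and 20.6% in young 1 and 2, 11.5% in old 1 and 21.7% in transplant to 65.4% in old 2, above both myeloid libraries. In the library of LARRY mature immune cells from bone marrow and spleen (BM+spleen), which has a CD11b tag, the level of AMPL388656 was 21.1 points higher in the top than in the bottom CD11b quartile.

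The amplicons that were lower in myeloid cells had smaller differences in log odds. AMPL388195 was read in 26.8% of lung and 29.7% of BM+PB cells. The main mice had 61.5%, 65.7%, 55.8% and 45.8%, and the replicate mice had 56.1% and 66.2%. The difference was -1.28 ± 0.244 in log odds (SE; edgeR adjusted p = 0.0104). AMPL367054 had 37.2% in lung and 39.4% in BM+PB, against 57.2% to 78.9% in marrow, which leaves the widest distance to the range among the lower ones, 17.8 points. AMPL371663 had 13.7% and 15.7%, against 29.8% to 46.5% (-1.25 ± 0.228, edgeR adjusted p = 0.00949). AMPL371297 led by log odds at -1.73 ± 0.427 (edgeR adjusted p = 0.0253), with 7.79% and 7.64% in myeloid cells. Its marrow libraries ran from 12.02% in main mouse 1 to 50.1% in main mouse 4, so the nearest was 4.24 points away. The other 6 were AMPL388737, AMPL365889, AMPL355873, AMPL371322, AMPL388298 and AMPL388327, with log odds of -1.25 to -0.92.

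**Figure D3:**
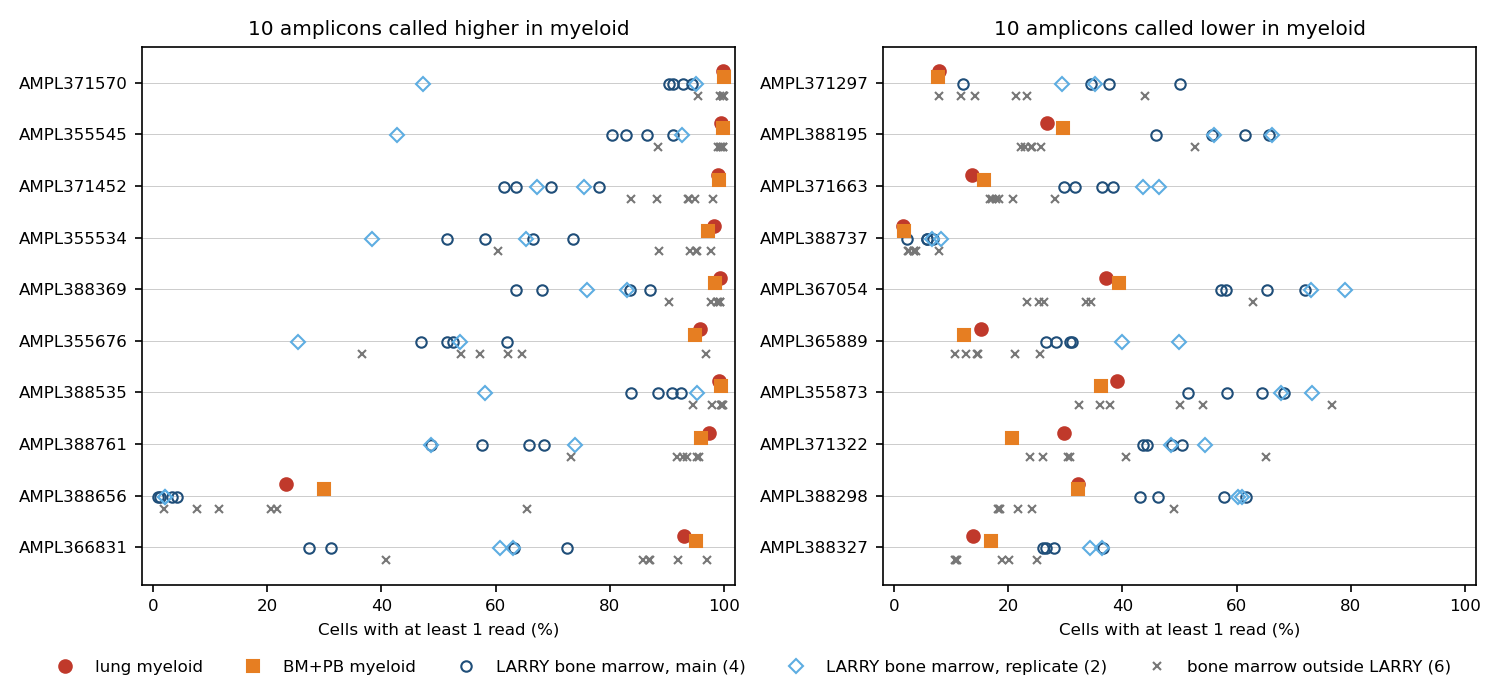
Share of cells with a read (%, x axis) at the 10 amplicons with the largest positive (left) and the 10 with the largest negative (right) difference in log odds. Filled symbols are the lung (red circles) and BM+PB (orange squares) myeloid libraries, open symbols the LARRY bone marrow of the main (circles) and replicate (diamonds) mice, and grey crosses the 6 bone marrow libraries outside LARRY. These amplicons were chosen to lie outside the LARRY marrow range, so no open symbol overlaps the filled ones. Grey crosses lie on both sides, as at AMPL388195, where 5 of the 6 are between 22.3% and 25.7%.

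Bone marrow outside LARRY bore directly on these differences. The series holds 6 such libraries: native, young 1 and 2, old 1 and 2, and transplant. At the 15 lower amplicons the median level was 26.8% in lung and 20.7% in BM+PB. It was 21.4% to 24.2% in the young, old and transplant marrow, 52.3% in the native marrow and 43.1% to 52.5% in LARRY marrow. At the 9 amplicons of the 20-point margin, the median was 93.1% in lung and 94.9% in BM+PB. It was 85.5% to 91.7% in young, old and transplant marrow, 43.4% in native marrow and 37.2% to 62.1% in LARRY marrow. For AMPL388195 these 5 marrow libraries were between 22.3% and 25.7%, below the 26.8% of lung and 29.7% of BM+PB. When the myeloid libraries were tested against the 6 marrow libraries outside LARRY, edgeR called 0 of 596 amplicons (0.00%), with 65 at an unadjusted p under 0.05. The library names number the LARRY and native marrow experiments M.1 to M.3 and all others M.4 to M.8. The part of experiment or library preparation in the differences was not tested.

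Beyond all 12 marrow libraries, in both myeloid libraries, lay 38 amplicons above and 9 below, of 663 (5.73% and 1.36%). Among the 79 called amplicons 18 of the higher and 3 of the lower ones were in this class. At the other 58, at least 1 marrow library outside LARRY reached the level of the nearer myeloid library. The distance of the 18 and the 3 to the nearest marrow library had a median of 1.62 and 1.099 points. For 2 amplicons, named after their values were seen, the distance was more than 10 points. AMPL371552 was read in 57.0% of lung and 65.6% of BM+PB cells. LARRY marrow had 38.6%, 37.8%, 43.8% and 42.7% in the main mice and 31.7% and 37.1% in the replicate mice, and the other marrow had 30.9% to 45.4%. AMPL376917 had 65.0% in lung and 75.3% in BM+PB, with LARRY marrow at 25.6% to 48.3% and other marrow at 46.3% to 53.9%. Against LARRY marrow the differences were 0.93 ± 0.199 and 1.34 ± 0.267 in log odds (SE; edgeR adjusted p = 0.0158 and 0.0117). Without BM+PB these adjusted p-values were 0.175 and 0.145. With a call of 10 reads in place of 1, AMPL371552 changed sign, to -0.37 in log odds.

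Both sites also differed between quartiles of antibody tags inside libraries, a measure that did not enter the comparison although it shares cells with it. The BM+PB tags are given by the names in their table, with the limits stated above. Within BM+PB, AMPL371552 was read in 74.6% of the top CD9 quartile of 968 cells, 24.6 points above the bottom one, and AMPL376917 in 83.7%, 22.8 points above. CD9 is a tetraspanin of platelets, megakaryocytes and several white cell types. By CD44, the hyaluronan receptor, the levels were 76.0% and 52.1% at AMPL371552 and 82.6% and 65.1% at AMPL376917. Within the 3 LARRY marrow libraries with usable protein data (main mice 3 and 4, replicate mouse 1) the top c-Kit quartile was lower than the bottom one at both. The mean differences were -1.49 ± 0.102 and -1.67 ± 0.108 in log odds (SE, n = 3 libraries; limma adjusted p = 0.000252 and 0.000245). Of all 608 amplicons, 148 (24.3%) were lower and 48 (7.89%) higher in the top c-Kit quartile, and for the stem cell antigen Sca-1 these counts were 17 (2.80%) and 113 (18.6%). The marrow libraries are those of the comparison with myeloid cells, so the c-Kit values are not independent of it.

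**Figure D4:**
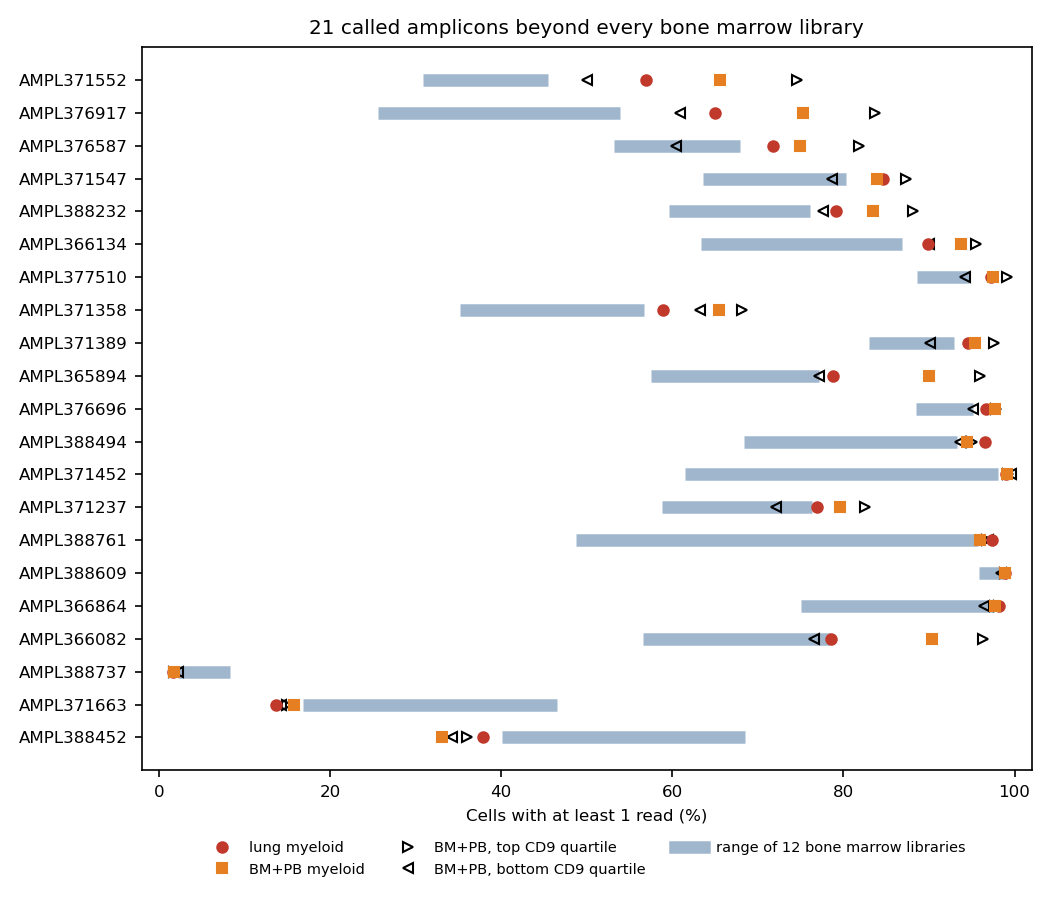
Share of cells with a read (%, x axis) at the 21 called amplicons at which both myeloid libraries lay beyond all 12 bone marrow libraries. Red circles are lung, orange squares BM+PB, open triangles the top (right-pointing) and bottom (left-pointing) CD9 quartiles of BM+PB, and blue bars the range of the 12 marrow libraries. At AMPL371552 and AMPL376917 all myeloid symbols, both CD9 quartiles included, lie right of the bar.

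The same within-library measure over the called amplicons gave a mixed picture. Of the 64 higher amplicons, 18 were at least 10 points higher in the top than in the bottom CD9 quartile of BM+PB and 0 lower, against 47 (7.73%) and 52 (8.55%) of all 608. By CD44 the counts were 18 and 0, against 48 (7.89%) and 43 (7.07%). Over the 608 amplicons the CD44 and CD9 quartile differences had a Pearson's r of 0.96, so the CD44 counts are no separate support. Cut at the median in place of quartiles, 19 of the 608 amplicons were at least 10 points higher and 25 lower by CD9, and 7 and 18 by CD44. AMPL365943, in the 20-point set, was 1 of them, at 62.3% in the top and 40.3% in the bottom CD9 quartile. It had 53.1% in lung and 55.5% in BM+PB, against 26.6% to 32.4% in LARRY marrow. Most leading amplicons did not move with the tag, however. At AMPL371452, AMPL355534 and AMPL388761 the quartiles differed by -0.31, 0.21 and -0.10 points. Both quartiles were at 96.8% to 99.6% at these sites, which left no room for a rise of 10 points. The small differences there do not show whether the level is independent of the tag. Among the 15 lower amplicons 0 were higher and 2 lower by 10 points along CD9.

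A CD11b-based list gave an axis that none of the 8 libraries helped to choose. CD11b is the integrin alpha M chain of granulocytes, monocytes and macrophages. Between the top and bottom CD11b quartiles of the BM+spleen library, 1315 cells each, 46 of 608 amplicons (7.57%) were at least 10 points higher in CD11b-high cells and 70 (11.5%) at least 10 points lower. Among these amplicons, CD11b-high cells were thus more often the less methylated ones. With a cut at the median in place of quartiles these counts were 22 and 48. Over all 608 amplicons the median quartile difference was 0.76 points, with CD11b-high cells above CD11b-low cells. Across the 608 amplicons, the CD44 and CD9 quartile differences in BM+PB had a Pearson's r of 0.73 and 0.68 with the CD11b difference in BM+spleen, and the CD48 difference an r of -0.59. These describe amplicons of a single panel, which are not independent replicates.

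The 2 myeloid libraries parted on the amplicons that CD11b-high cells lacked. The mean level over these 70 was 36.8% in lung and 24.1% in BM+PB, against 29.4% to 38.2% in LARRY marrow. BM+PB was below the marrow range at 48 of the 70 and above it at 9, while lung was below at 5 and above at 29. Over all 663 amplicons BM+PB was below at 168 and above at 173, and lung below at 46 and above at 262. The lung counts on the list were thus close to the lung share over all amplicons. Without thinning BM+PB was below at 56 of the 70 and above at 5, and the lung balance turned, to 19 below and 9 above. The strongest member by CD11b, AMPL365901, had 23.6% in CD11b-high and 62.0% in CD11b-low cells. It was read in 23.7% of lung and 11.99% of BM+PB cells, against 15.9% to 21.8% in marrow. AMPL371668 had 29.1% in lung and 13.5% in BM+PB, against 23.0% to 37.8%, and AMPL365828 had 33.3% and 12.8%, against 22.7% to 33.0%. At all 3 BM+PB was the lowest of the 8 libraries, and lung was above BM+PB by more than 10 points. Lung endothelial cells, which the lung library could also hold, had 1.91%, 99.5% and 84.6% at these sites, and their part in the lung values was not tested.

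On the 46 amplicons that were higher in CD11b-high cells, both myeloid libraries were above LARRY marrow in the mean, with 62.7% in lung and 59.5% in BM+PB, against 49.9% to 58.4%. Transplant marrow, at 62.8%, was above both, and old 2, at 61.5%, was above BM+PB. AMPL388483 was the called member with the largest CD11b difference, 24.3 points between CD11b-high cells (84.3%) and CD11b-low cells. It was read in 67.7% of lung and 78.6% of BM+PB cells, against 52.9% to 60.04% in LARRY marrow, and in 85.8% of native marrow cells. Of the 46 amplicons edgeR called 5 higher and 0 lower, and of the 70 it called 3 higher and 2 lower. Over all 608 amplicons tested 64 (10.5%) were called higher and 15 (2.47%) lower.

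A score per cell, the percent read of the 46 amplicons minus the percent read of the 70, placed the cells along this axis. The median score was 30 points in lung and 40.1 in BM+PB, against 18.9 to 24.2 in the marrow libraries. Scores of at least 30 were found in 50.1% of lung and 75.8% of BM+PB cells, against 25.3% to 36.6% of marrow cells. Scores under 10 were found in 21.98% of lung and 10.9% of BM+PB cells, against 20.1% to 27.3%. The 25th to 75th percentiles ran from 12.7 to 41.7 in lung and from 30.6 to 46.7 in BM+PB, and the 5th to 95th from -12.8 to 52.6 and from -5.78 to 56.02. In the BM+spleen library, where the lists were chosen, the median was 39.5, and in lung endothelial cells 98.9% of cells scored under 10. The transplant marrow had a median of 35.2, above the lung library.

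**Figure D5:**
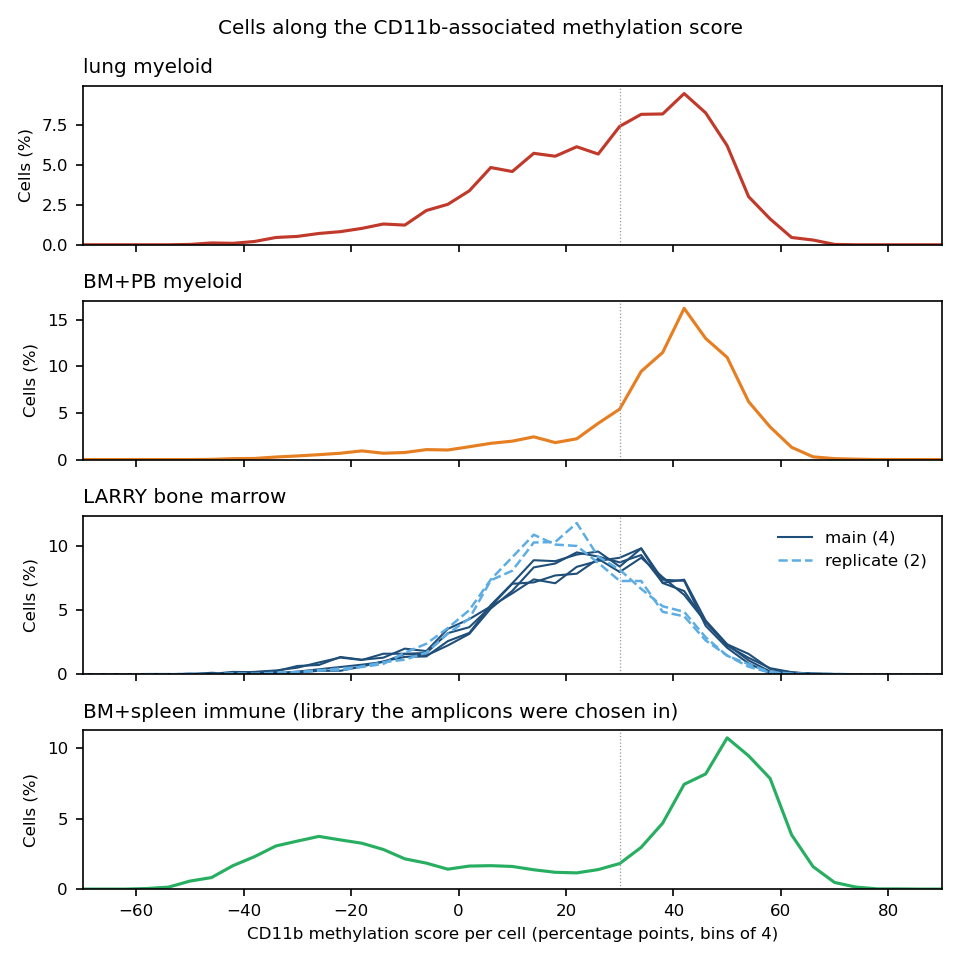
Share of cells (% of a library, y axis) along the CD11b methylation score (percentage points, x axis, bins of 4) in lung myeloid, BM+PB myeloid, the 6 LARRY bone marrow libraries and the BM+spleen library. The dotted line marks 30, above which lie 50.1% of lung, 75.8% of BM+PB and 25.3% to 36.6% of LARRY marrow cells.

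The level followed this score at some of the sites named above and not at others. AMPL371452 was read in 99.1% of lung cells with a score of at least 30 and in 98.8% of those under 10, and in BM+PB in 99.0% and 99.6%. AMPL355534 had 98.6% and 98.1% in lung and 97.4% and 94.8% in BM+PB. Both sites were close to full methylation, which left little room for a difference. Among lower amplicons, AMPL388195 had 29.3% and 23.4% in lung and 29.5% and 29.2% in BM+PB. AMPL371663 had 8.51% in cells with a score of at least 30 and 20.4% in those under 10 in lung, and 13.5% and 24.4% in BM+PB. AMPL365889 had 9.42% and 22.2% in lung and 10.9% and 19.6% in BM+PB. AMPL388656 and AMPL371322 are on the CD11b lists and enter the score themselves. AMPL388656 had 27.3% and 14.7% in lung and 33.4% and 14.6% in BM+PB. AMPL371322 had 22.7% and 43.2% in lung and 15.6% and 47.8% in BM+PB. These splits describe cells of 1 library each and have no test.

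Averaged over the 421 amplicons with a marrow mean of 25% to 90%, the level was 65.2% in lung and 60.1% in BM+PB, against 56.6% to 63.8% in marrow. The myeloid mean was 62.6% ± 3.60 (SD, n = 2) and the marrow mean 59.8% ± 3.01 (SD, n = 6). The difference of 2.81 points was not larger than the spread between libraries (exact two-sided permutation test over 28 arrangements, p = 0.286, where the smallest possible p is 0.0714). Lung lay above every marrow library and BM+PB inside their range, below both replicate mice at 63.4% and 63.8%.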

How the data were processed

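The authors deposited, per library, a table of read counts per cell and amplicon from scTAM-seq, not normalized, and tables of antibody tag counts (UMI). The build is mm10 per the submitters' processing notes. For the aligner and the cell caller, no source used here gives a name. Groups came from sample titles. Cells were thinned without replacement to 11093 reads, the 25th percentile of the lung library, and shallower cells were left out. Doublets were not called. Counts of read and unread cells per library were tested with edgeR 4.0.16 (R 4.3.3), quasi-likelihood, with an intercept per library, and quartiles of c-Kit and Sca-1 within 3 marrow libraries (cells with at least 100 UMI) with limma 3.58.1. DESeq2 1.42.0 was an alternative. Replicates are libraries, and where the labels do not name separate animals p-values measure the spread between libraries only. No library at this depth has fewer than 3342 cells, and 0 cells with a read would allow a share of up to 0.0898% there. A count of 0 covers counting error only.

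In data simulated with a spread of 0.322 log odds over 608 amplicons, edgeR recovered 16% of changes of 0.5 and 90% of changes of 1. It called 5 of 408 unchanged amplicons. The simulation gave every amplicon this same spread, drew amplicons independently and held no difference between experiments. Its rates therefore need not hold for the real amplicons, some of which spread more widely.

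The comparison, the lists and the tests were chosen with earlier results of these data known. Named amplicons were, among calls with both myeloid libraries outside the marrow range, the 10 at either end of the difference in log odds, and at most 2 for the difference between the myeloid libraries. Members of the 20-point margin are named as well. AMPL371552, AMPL376917, and the examples given for the CD11b and CD9 lists, were named after their values were seen. Proteins were those of the marker lists, with CD44 added. The BM+PB table lacks the tags first chosen, so CD9, CD44 and CD48 there, the CD11b lists of the BM+spleen library, and the comparisons with marrow outside LARRY were chosen after seeing the data.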

Additional observations from a re-analysis of the deposited data

Results flagged for a closer look

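At 3 of 24 amplicons checked for a library far from the other 5 of LARRY marrow, replicate mouse 2 was far below. It had 47.2% at AMPL371570, where the next lowest had 90.4%, 42.7% at AMPL355545, where the next lowest had 80.5%, and 58.1% at AMPL388535, where the next lowest had 83.8%. Chance gives such a gap in about 1 of 20 groups. Without replicate mouse 2 edgeR called 71 amplicons higher and 17 lower.

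Of all 663 amplicons, lung was above the marrow range at 262 and below it at 46. BM+PB was above it at 173 and below it at 168. Of the 608 tested, lung was above BM+PB at 510. At 15 of the 663 amplicons lung was above the marrow range and BM+PB below it, and at 0 amplicons the reverse. The 2 farthest were AMPL366028, with 24.5% in lung and 8.03% in BM+PB (a difference of 16.5 points; marrow 11.5% to 20.4%), and AMPL388466, with 26.1% and 16.9% (9.15 points; marrow 20.6% to 23.5%). With 1 library each, this difference was not tested.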

How the results depend on the processing

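The balance of directions moved with thinning, the read call, the test and the marrow libraries compared. Without thinning edgeR called 23 amplicons higher and 62 lower (192 at an unadjusted p under 0.05, against 173). In that setting 1 amplicon was more than 20 points above the marrow range and 13 below. The mean difference over intermediate amplicons was then -4.17 points. With a call of 5 reads 24 were called lower and 1 was below the margin, and with 10 reads 41 were higher and 32 lower. DESeq2 on summed reads called 41 higher and 55 lower, and edgeR on summed reads 19 higher and 29 in all. Against the main mice alone 99 were higher, with 14 above and 1 below the margin. Against the replicate mice alone 35 were called, 19 of them higher, with 17 above and 12 below, and the mean difference was -0.96 points.

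Against the 6 marrow libraries outside LARRY edgeR called 0, namely 0 higher and 0 lower, with 65 at an unadjusted p under 0.05. By limma and DESeq2 this was not run. No amplicon passed the margin there (0 above), nor against all 12 marrow libraries (0 above), and the mean difference was -0.15 points. At 5 amplicons the sign changed, to 0.032 log odds at AMPL388195, 0.23 at AMPL367054, 0.43 at AMPL388298, 4.18e-05 at AMPL388327 and -0.072 at AMPL365953. AMPL371552 was at -0.37 log odds with a call of 10 reads. On summed reads its natural log fold change was -0.40 by edgeR and -0.40 by DESeq2. The cause was not tested.

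Leaving out 1 library at a time gave 12 to 88 calls, 12 to 71 higher and 0 to 19 lower, 9 to 16 above and 0 to 6 below the margin, and mean differences of 0.26 to 5.35 points. The lowest counts came without BM+PB (12 higher, 0 lower by edgeR, 124 at an unadjusted p under 0.05). A margin of 0 points gave 167 above and 43 below, and of 10 points 23 and 10. Thinning to 5546 reads, another draw, equal reads at constitutive amplicons, a call of 2 reads, cells without the 5% with most amplicons, BM+PB cells above the median CD44 (added after seeing the data), limma, no filter on the level and a median of log odds set to 0 kept each of these counts within 1.5 times. Within marrow, a cut at the median in place of quartiles gave 30 amplicons higher with c-Kit, and no minimum of UMI gave 130, and 71 for Sca-1.

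No paired analysis was possible because the myeloid libraries carry no replicate number that matches a marrow mouse. The alternative with myeloid cells above the median CD11b was not run, since neither myeloid library has that tag. Depth limits the lung library most, and 1 library of each myeloid tissue leaves the spread within a tissue unknown.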
